A study of Mus musculus with 8 samples.

Results

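Introns of 1000 nt or more that remained in polyadenylated RNA were examined in mouse spermatocytes and round spermatids. An intron entered when the distance between its 2 flanking exons was at least 1000 nt in the retained intron table of either stage, and each position was counted once. This gave 541 introns in 477 genes, of 2941 retained introns in all, and left 2400 below 1000 nt. The spermatocyte table held 513 of the 541, the round spermatid table held 486, and 458 were in both. Their median length was 1535 nt, with quartiles at 1245 and 2062 nt, and the longest was the 8856-nt intron of Hace1. Of the 541, 146 were 2000 nt or longer and 84 shared bases with another of the 541, so that these are not separate measurements. 52 genes held more than 1, with 4 in Snhg17.

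The cells came from testes of adult C57BL/6 mice, either wild type or carrying a conditional knock-out of Larp7, and were sorted by Hoechst staining. Each genotype and stage had 2 libraries, 8 in all. The sources used here name neither the driver of the knock-out nor the number of animals behind a library. The table headers number the sample groups without naming a genotype. Comparisons inside a stage therefore set the first sample group against the second, with the value of both libraries and no genotype direction.

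Most introns leave the transcript while it is being made. A retained intron stays in a polyadenylated transcript, which is often held in the nucleus or degraded. Genes for splicing factors, the SR proteins and the CLK kinases that phosphorylate them among them, are known for retained introns that take part in control of their own output. Spermatocytes are in meiosis and round spermatids are the haploid cells that follow. Larp7 binds 7SK RNA, which restrains transcription elongation, and also acts in modification of the spliceosomal U6 RNA.

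Retention was expressed as a level, the percentage of the inclusion form after each form's reads were divided by its length. The skipping form is the junction that joins both flanking exons and had a length of 149 nt. The inclusion form had the intron's length plus 149 nt, so reads inside the intron count toward retention. An exon inside a long intron adds its reads to the inclusion form, and transcripts that use this exon add none to the skipping form.

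Sequence could be shown where a RefSeq microRNA or promoter window (GRCm38.p6) reached a member. Splice sites at 7 ends are printed, and the bases at the other ends could not be read. Capitals mark the first bases of the intron at 5′ sites and the last bases at 3′ sites, read 5′ to 3′ on the gene's strand.
1700028P15Rik 5′ site: gctttgagGTaggagagttgggctaagatt
Cetn4 5′ site: gggatatgGTgagtgctgtgggaccctggt
Fbxl12 5′ site: ggctgcagGTgtgccgaaatggagtcat
Cttnbp2nl 3′ site: aatgctttaaaatcctttacAGgtgatcct
Nat6 3′ site: gacgactgctttccatgatcAGgaggaagt
Ddx5 3′ site: gccacactgcaacaccttacAGa
Rpl13 3′ site: ctgacttctgttctctttccAG
All 7 ends carried GT at the start or AG at the end.

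A microRNA lay in 4 members. Their mature forms are printed because 2 of them end at the intron's last base or 1 nt before it, with the seed (bases 2 to 8) in capitals.
mmu-miR-7079-5p (Rpl13): aGGGCUGAggcagugaguccug
mmu-miR-7079-3p (Rpl13): uGACUUCUguucucuuuccag
mmu-miR-3064-5p (Ddx5): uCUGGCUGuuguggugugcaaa
mmu-miR-3064-3p (Ddx5): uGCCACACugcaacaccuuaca
mmu-miR-1249-3p (5031439G07Rik): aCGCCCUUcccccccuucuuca
mmu-miR-7650-5p (Taf1d): aAUCCUCUugcaacccagaacu
mmu-miR-7650-3p (Taf1d): gUUUUGAUauauacaagaagga
No 2 of these seeds were the same. The last base of miR-7079-3p is the last base of the Rpl13 intron, and miR-3064-3p ends 1 nt before the end of the Ddx5 intron. The 4 host introns differed widely in level. Rpl13, a ribosomal protein gene, had 0.263%, 0.271%, 0.283% and 0.260% in the spermatocyte libraries. The 2294-nt intron of Taf1d, which encodes a subunit of a polymerase I factor, had 83.7%, 79.5%, 85.3% and 83.0%. A 63-nt exon inside the Taf1d intron was included at 87.5 to 92.8% in those libraries. Whole RefSeq genes lay inside 15 members (2.77%), 8 of them with a snoRNA, against 1.71% of introns under 1000 nt. Overlapping Snhg17 introns held the same snoRNA gene and overlapping Rpgrip1 introns the same pseudogene, so the 15 are not separate cases. A snoRNA gene lay in 8 of the 541 members and in 33 of the 2400 shorter introns, and intron length was not adjusted for.

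Each library had between 49904607 and 102000320 reads over the splicing events of all tables, and overlapping events share reads. Among the introns of 1000 nt or more, 486 had enough reads to be tested in spermatocytes (at least 10 on average per library and a read in each form), 447 in round spermatids and 419 in both. The 27 and 39 members of each table below this limit were not tested. A tested member had a median of 317 reads per library in spermatocytes and 167 in round spermatids.

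Levels were spread over the whole scale. In spermatocytes 161 of 486 members lay under 5%, 183 between 5 and 50%, and 142 above 50%. In round spermatids the numbers were 196, 147 and 104 of 447. The 4 spermatocyte libraries had medians of 12.7%, 12.1%, 14.0% and 13.4%, and the round spermatid libraries 7.26%, 6.51%, 7.13% and 7.74%. Introns under 1000 nt had higher medians in every library, 14.6 to 16.4% and 9.87 to 10.5%. The low medians lay in the class from 1000 nt to under 2000 nt: introns of 2000 nt or more had 15.7 to 18.0% in spermatocytes and 7.35 to 12.9% in round spermatids. Introns that overlap an alternative exon were 42.2% of the class of 2000 nt or more in spermatocytes, and 28.2% of the class below it. The part of exon content in these medians was not tested.

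**Figure D1:**
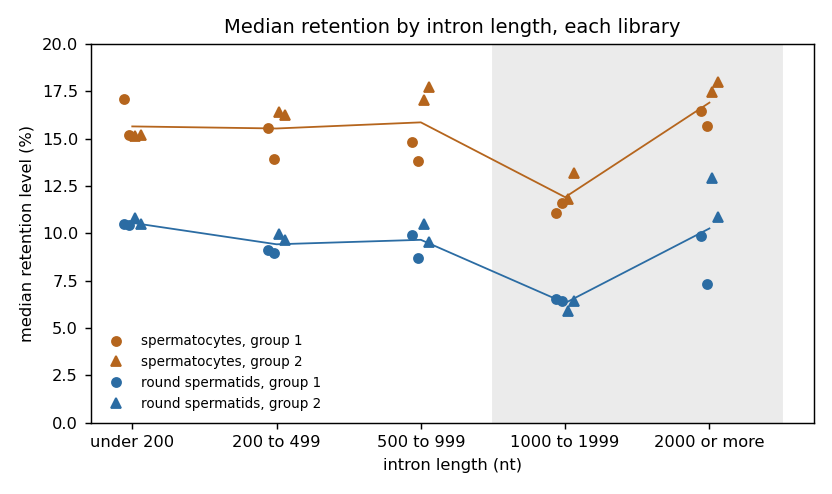
Median retention level in percent (y axis) of tested introns in 5 length classes (x axis, nt), 1 point per library, circles for the first and triangles for the second sample group, with lines through the mean of the 4 library medians. Shading marks 1000 nt or more. The class from 1000 nt to under 2000 nt is lowest in both stages, at 11.1 to 13.2% in spermatocytes and 5.89 to 6.56% in round spermatids.

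An alternative exon lay wholly inside 128 of the 541 (23.7%), and the level moved with it. The 113 tested members with such an exon had spermatocyte medians of 65.5%, 77.2%, 81.8% and 80.0%. The 373 without one had 6.83%, 6.70%, 7.52% and 7.61%. In round spermatids the medians were 45.03%, 43.1%, 50.7% and 51.9% with an exon and 5.06%, 4.34%, 4.39% and 5.12% without. Of the 142 members above 50% in spermatocytes, 72 held an exon. How much of each level is exon sequence rather than intron sequence was not tested.

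**Figure D2:**
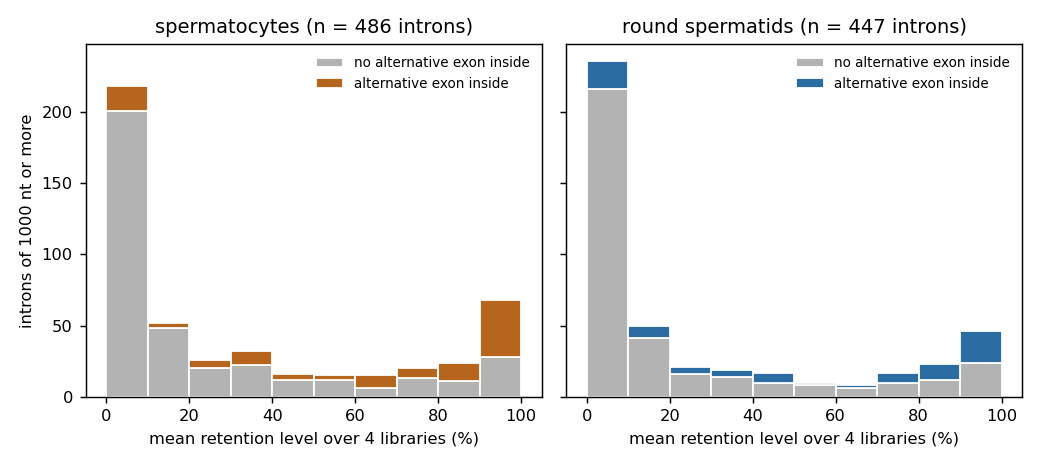
Number of tested introns of 1000 nt or more (y axis) by mean retention level over 4 libraries in percent (x axis, classes of 10 points), left spermatocytes and right round spermatids, with members that hold a whole alternative exon in colour. Most members lie at the low end, and exon-holding members make up most of the top class in spermatocytes.

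Single introns show both ends of the scale. Snrnp70, a protein of the U1 particle, had a 1006-nt intron at 100%, 99.4%, 99.6% and 100% in spermatocytes, with 0, 5, 2 and 0 skipping reads. Tardbp, an RNA-binding protein, stood at 99.4%, 98.0%, 96.4% and 96.5% with no exon inside. At the other end the 1763-nt intron of Snrpc, another U1 protein, stood at 0.260%, 0.249%, 0.206% and 0.136% on 2411 to 5610 skipping reads. The 8856-nt Hace1 intron lay at 6.51%, 6.80%, 5.33% and 6.14% in spermatocytes and at 5.25%, 10.4%, 9.71% and 5.35% in round spermatids, where the stages overlapped. Levels near 100% rest on few skipping reads: Chid1 (4897 nt) had 0 or 1 in every library, and its level ran from 32.1 to 100%.

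Members on either side of the 1000-nt limit are given without a test. Ilkap (1003 nt), Copa (1004 nt) and Abtb2 (1006 nt) had spermatocyte means of 10.01%, 7.87% and 5.31%. Rif1 (1 nt short of the limit), Msmo1 (997 nt) and Dnah10 (994 nt) had 2.13%, 9.60% and 13.2%.

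Long introns were retained less in round spermatids than in spermatocytes. Over the 419 members tested in both stages, the library medians were 9.39%, 8.96%, 9.10% and 9.75% in spermatocytes and 6.56%, 5.75%, 5.87% and 5.88% in round spermatids. The libraries of the stages did not overlap, and the difference was -3.29 percentage points (two-sided exact permutation test over libraries, p = 0.0286, the smallest that 4 against 4 allows). Each set of 4 holds both sample groups, which the permutation did not keep apart. All stage comparisons here take both sample groups together. By limma with Benjamini-Hochberg adjustment over all events, 144 members in 133 genes were lower in round spermatids and 24 in 22 genes were higher. The 144 are 34.4% of members, where 6.3% of all events tested were called lower, and the 24 are 5.73%, where 6.89% of all events were called higher. Shorter introns did much the same, with 507 lower and 60 higher of 1710. The members' median log2 odds difference was -0.55, against -0.47 for shorter introns and 0.08 for all events.

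The gap between the medians of long and shorter introns was smaller in round spermatids by 1.04 points (two-sided exact permutation test, p = 0.0571). With at least 50 reads it was smaller by 1.78 points, and without introns that overlap an alternative exon by 1.73 (exact permutation p = 0.0286 in both). Without the second library of the second spermatocyte group it was smaller by 1.30 points (p = 0.0286, exact permutation test). A gap in points can shrink when both classes fall by a like factor, and both fell here. On the log2 odds scale the members' median difference was -0.55, against -0.47 for shorter introns, so the smaller gap does not mean that long introns fell less. The order of members held across stages, with a Spearman rho of 0.90 between mean levels over 419 introns, which share genes and libraries. Fewer cells of a type and less RNA per cell cannot be told apart in such bulk samples. Marker CPM were taken from each gene's most-covered splicing event and scaled to the sum of these reads, not to all event reads. Marker sums moved with stage. The 9 meiotic genes came to 10033 to 12380 CPM in spermatocytes and 5748 to 9006 in round spermatids. Ldhc alone gave 6751 to 8271 and 4880 to 8087 CPM of these sums. Ldhc, Ccna1 and Dmc1 overlapped between stages, with Ccna1 at 301 to 460 and 332 to 532 CPM. Sycp1, Sycp2, Sycp3, Hormad1, Spo11 and Piwil1 were lower in every round spermatid library, with Piwil1 at 1030 to 1515 and 38.8 to 57.2 CPM. The 3 detected of 8 elongating spermatid genes came to 1711 to 2715 and 8429 to 13965 CPM. The part of these markers in the retention difference was not tested.

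**Figure D3:**
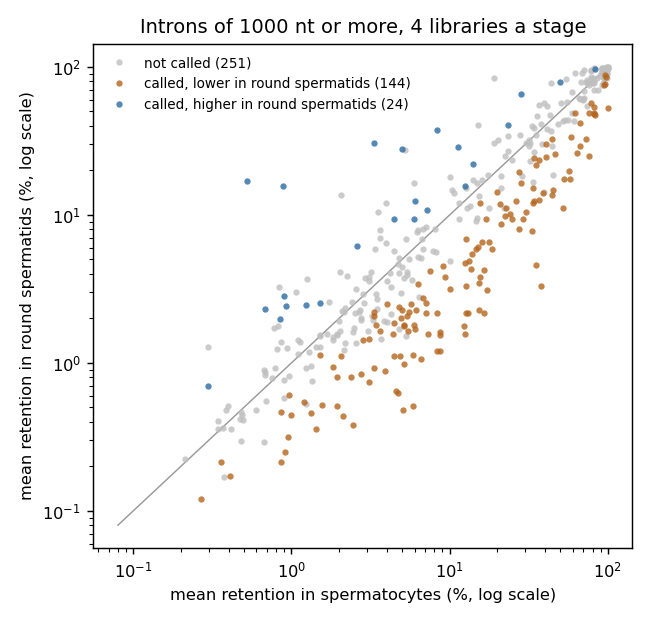
Mean retention level of each of 419 introns in spermatocytes (x axis, percent, log scale) and round spermatids (y axis, percent, log scale), 4 libraries a stage, with called introns in colour and a line of equal level. The 144 introns called lower lie below the line at every level, and 24 called higher lie above it.

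SR proteins and their kinases had 9 members, of which 5 were lower in round spermatids and 0 higher, where 34.4% of all long introns tested were lower. Of the 5, 2 are overlapping Clk3 introns. Rsrp1, an arginine and serine rich protein, went from 71.1%, 71.7%, 62.5% and 59.5% in spermatocytes to 36.9%, 42.8%, 46.3% and 40.7%. Clk1, a kinase of SR proteins, went from 30.6%, 22.9%, 24.4% and 26.6% to 15.7%, 8.18%, 9.76% and 15.8%. Neither gene's libraries overlapped, and the log2 odds differences were -1.47 ± 0.22 (SE) and -1.41 ± 0.23, with limma adjusted p of 2.45e-09 and 3.02e-08. A 45-nt exon inside the Rsrp1 intron was included at 32.7%, 35.4%, 9.06% and 9.63% in spermatocytes and at 5.50 to 22.9% in round spermatids. A 91-nt exon inside the Clk1 intron was included at 6.98 to 26.8% and at 13.4 to 23.4%. Clk2 (26.0 to 44.6% against 44.6 to 61.8%), Tra2a, Srrm1 and Srsf5 did not pass.

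Clk3 had 2 overlapping members that share a 5′ end and most of their reads. The 2473-nt intron fell from 52.7%, 54.9%, 78.1% and 67.5% to 21.7%, 18.2%, 30.5% and 35.1% (log2 odds difference -2.35 ± 0.24, limma adjusted p = 5.97e-21). The 2100-nt intron fell from 11.5%, 11.7%, 20.8% and 18.0% to 8.43%, 7.66%, 16.8% and 15.1% (-0.48 ± 0.15, limma adjusted p = 0.0144), and there the stages overlapped. The call of the shorter intron was lost without any 1 of 4 libraries, the second of the first group and the first of the second group in spermatocytes and the second of each group in round spermatids (limma adjusted p of 0.0874 to 0.147). A 97-nt exon lies in the part that the longer intron alone has, and its inclusion was 90.5 to 93.2% in spermatocytes and 69.3 to 75.2% in round spermatids. Reads of this exon count toward the longer intron's level, so the exon is not a separate measurement.

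Regulators of the hnRNP and RBM kind had 9 members, 4 lower and 0 higher, near the 34.4% of all long introns that were lower. Hnrnph1, which binds G-rich RNA, went from 64.7%, 51.1%, 45.5% and 48.6% to 24.5%, 12.3%, 16.1% and 17.0%, on 356 to 892 skipping reads in spermatocytes. Its log2 odds difference was -2.47 ± 0.13 (limma adjusted p = 4.40e-76). A 139-nt exon inside this intron was itself included at 76.2 to 79.4% in spermatocytes and 30.5 to 35.6% in round spermatids. Reads of this exon count toward the intron's level, so exon and intron levels are not separate measurements. How much of the intron's fall is exon sequence was not tested. Ddx5, a helicase, fell from 5.74%, 5.12%, 6.29% and 5.05% to 2.62%, 1.67%, 2.57% and 1.95% with no exon inside (-1.42 ± 0.12, limma adjusted p = 3.85e-31). Rbm25 and the cyclin Ccnl1 were also lower, while Rbm5, Tardbp and both Ccnl2 introns were not called.

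Core spliceosome genes had 6 members with 3 lower and 0 higher, again beside 34.4% of all long introns. Snrpa1, of the U2 particle, went from 32.6%, 26.6%, 26.2% and 24.996% to 8.27%, 8.68%, 8.71% and 6.69%, with a log2 odds difference of -2.08 ± 0.27 (limma adjusted p = 9.72e-13). An 80-nt exon inside it was included at 72.5 to 85.2% in both stages. Prpf31 fell from a mean of 12.7% to 6.83%. A 56-nt exon inside the Sf3b1 intron was included at 0.451 to 3.02% in spermatocytes and 0.148 to 1.58% in round spermatids. Sf3b1 went from 6.52%, 3.11%, 2.19% and 2.67% to 1.19%, 1.87%, 1.997% and 1.54%, with 1 spermatocyte library well above the rest. Its call was lost with the trend on total reads (limma adjusted p = 0.268) and without either first-group round spermatid library (0.117 and 0.0700).

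Cleavage, polyadenylation and export genes had 6 members, 4 lower and 0 higher, beside 34.4% of all long introns, but 3 of the 4 are overlapping Cpsf4 introns. The calls of the 1530-nt and 1533-nt Cpsf4 introns were lost without single round spermatid libraries (limma adjusted p of 0.0636 to 0.160). The 1455-nt intron of Cpsf4, a cleavage factor subunit, went from 48.9%, 42.2%, 49.5% and 39.8% to 14.6%, 15.2%, 14.2% and 14.6%. Nxf1, the main mRNA export receptor and a textbook case of a retained intron, went from 37.7%, 36.4%, 43.4% and 45.7% to 30.5%, 30.7%, 30.4% and 28.4% (log2 odds difference -0.67 ± 0.12, limma adjusted p = 2.10e-06). The stages did not overlap in either. Of the 7SK and U6 genes, Ccnt2 and Mettl14 held a member. Mettl14 was tested for stage and not called, Ccnt2 was tested in spermatocytes alone and not called between groups, and the meiotic helicase gene Hfm1 was not called. Lists for nonsense-mediated decay, piRNA and spermatid structure held no member.

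The largest differences in points lay outside these lists for most genes. Plekhn1 went from 37.1%, 33.9%, 43.4% and 36.3% to 2.35%, 3.17%, 4.22% and 3.43%, and Bicd2, a dynein adaptor, from 68.5%, 71.4%, 78.5% and 72.0% to 33.5%, 34.3%, 30.8% and 32.4%. Both had no exon inside and well separated libraries. Sec63, part of the translocation channel of the endoplasmic reticulum, had the largest difference (-51.0 points), from 78.5%, 90.6%, 35.0% and 100% to 23.2%, 25.8%, 24.6% and 26.4%. It rests on 2, 1, 6 and 0 skipping reads in spermatocytes and 6, 7, 4 and 3 in round spermatids, and a 51-nt exon inside it was included at 97.9% or more in all libraries. The call was lost without count weights (limma adjusted p = 0.0673) and without any 1 of 3 libraries, the second of the first group and the first of the second group in spermatocytes and the first of the second group in round spermatids (0.0538 to 0.0713).

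**Figure D4:**
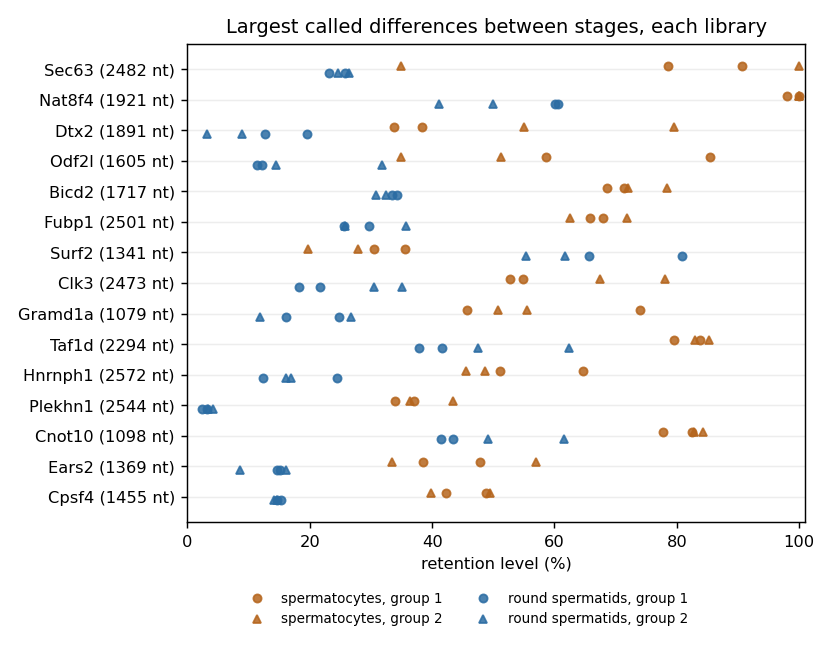
Retention level in percent (x axis) of the 15 genes with the largest called difference between stages (y axis, intron length in brackets), 1 point per library, coloured by stage and shaped by sample group. All of these except Surf2 are lower in round spermatids.

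A smaller set was higher in round spermatids. Surf2 went from 35.5%, 30.5%, 19.7% and 27.9% to 65.6%, 80.8%, 55.3% and 61.8% (log2 odds difference 2.41 ± 0.26, limma adjusted p = 1.47e-18), and its 3 called introns overlap. Ckap5, a microtubule polymerase, rose from 0.537%, 0.590%, 0.503% and 0.463% to 6.83%, 25.4%, 12.5% and 23.1% (4.90 ± 0.41, limma adjusted p = 1.29e-29). The stages did not overlap in either. Ckap5 was chosen after its values were seen.

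Within spermatocytes, 22 of 486 members were called between the sample groups, 17 lower in the first group and 5 higher, by limma with Benjamini-Hochberg adjustment. Over all events 0.398% were called lower and 0.139% higher. The libraries of the groups did not overlap in any of the 22, and 7 differed by at least 10 points. These calls are fragile: leaving out either library of the second group left 0. Leaving out the first or second library of the first group gave 28 of 468 or 30 of 465 members, but these fits called 11381 of 53740 and 11333 of 53646 events, a larger share than of the members. Of the 16 named introns 1 was still called in each case. The fit also made false calls in simulated data with one of 2 kinds of spread, beta-binomial, in which most calls between 2 and 2 libraries were false.

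Without any test, 137 members (28.2%) had both first-group libraries below both second-group libraries, where 22.6% of all events did, and 82 (16.9%) had both above, where 9.83% of all events did. The second sample group's libraries also differed from the first in markers. Spermatogonial genes (7 of 7 higher in the first group without overlap, none at 0) summed to 233 and 60.5 against 19.2 and 25.1 CPM. Sertoli genes (4 of 4 with a splicing event, of 6) summed to 205 and 135 against 40.9 and 69.2. Elongating spermatid genes (3 with an event, of 8) summed to 1711 and 2072 against 2715 and 2432. Leydig, peritubular and immune genes (4 with an event, of 6) summed to 66.0 and 39.9 against 34.5 and 44.3 CPM, which overlap. Of 9 meiotic genes, 5 were higher and 3 lower in the first group without overlap. Among the higher, Dmc1 had 31.6 and 12.98 against 0.823 and 2.92 CPM and Sycp3 994 and 728 against 525 and 430 CPM. Those lower were Spo11 at 166 and 168 against 270 and 215 CPM, and Piwil1 at 1030 and 1073 against 1515 and 1166. Ccna1 was also lower, at 301 and 356 against 410 and 460 CPM. The part of all these markers in the retention differences was not tested.

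Splicing genes were among the 22, and values are given for the first against the second group. Srsf6, an SR protein, had levels of 21.2% and 27.5% against 41.8% and 49.8% (log2 odds difference -1.33 ± 0.20, limma adjusted p = 6.40e-07). A 268-nt exon inside this intron had 38.0% and 46.9% against 57.2% and 66.7%. Its reads count toward the intron's level, so it is not a separate measurement. Srsf5, another SR protein, had 14.7% and 14.0% against 30.5% and 25.1%, with no exon inside (-1.22 ± 0.16, limma adjusted p = 2.39e-10). Clasrp, which binds CLK4, had 9.51% and 9.44% against 20.7% and 21.7%, and the 2100-nt Clk3 intron 11.5% and 11.7% against 20.8% and 18.0%.

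Other introns were lower in the first group. Ist1, an ESCRT component, had 34.3% and 35.4% against 64.1% and 60.9% (-1.63 ± 0.26, limma adjusted p = 1.11e-06). Its intron holds a whole alternative exon of 160 nt. Inclusion of that exon was also lower in the first group, at 13.8% and 15.7%, with 23.6% and 30.1% in the second. The exon was not called (limma adjusted p = 0.191). Its reads add to the Ist1 level, and how much of the Ist1 difference is exon sequence was not tested. The uncharacterised gene 0610037L13Rik had 10.6% and 10.9% against 21.2% and 23.6%, and the phosphatase gene Cdc25a 2.29% and 3.29% against 9.23% and 5.49%. For 0610037L13Rik the first library's 95% Wilson interval was 9.61 to 11.7%, which covers counting error only. Exons of 87 and 36 nt inside its intron were included at 0 to 4.52% in spermatocytes.

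The 5 introns higher in the first group were Vac14, Atp11b, Rbm25, R3hdm1 and Sf3b1, and none of them was called by the quasi-binomial test (adjusted p of 0.0519 to 0.439). Rbm25 had 19.1% and 17.8% against 11.1% and 12.3% (0.75 ± 0.17, limma adjusted p = 0.00439). In the other 4 the first library stood well above the second of its own group, as in Vac14, at 39.1% and 10.99% against 6.32% and 4.63%. In Sf3b1 it was 6.52% and 3.11% against 2.19% and 2.67%.

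In round spermatids 1 of 447 members was called, and over all events 0.0874% were called lower and 0.0437% higher. This was the 2100-nt Clk3 intron, at 8.43% and 7.66% against 16.8% and 15.1% (-1.14 ± 0.25, limma adjusted p = 0.00779). It was called in the same header direction in spermatocytes. The call was lost with the trend on total reads (limma adjusted p = 0.335), without count weights (0.141), with no filter on low reads (0.602) and without any 1 of the 4 libraries (0.108 to 0.367). Without a test, 100 members (22.4%) had the first group below without overlap, where 16.1% of all events did, and 52 (11.6%) above, where 10.6% did. Of 3 elongating spermatid genes with a splicing event 2 were lower in the first group without overlap, with sums of 8429 and 10472 against 13965 and 10921 CPM. Of 3 Sertoli genes with a splicing event 2 were higher, with sums of 61.7 and 81.2 against 38.8 and 49.0 CPM. The part of these markers was not tested. An unadjusted limma p under 0.05 was found for 47 of 447 members, beside 2826 of all 48060 events. In spermatocytes it was found for 109 of 486 members, beside 5250 of all 61123 events.

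**Figure D5:**
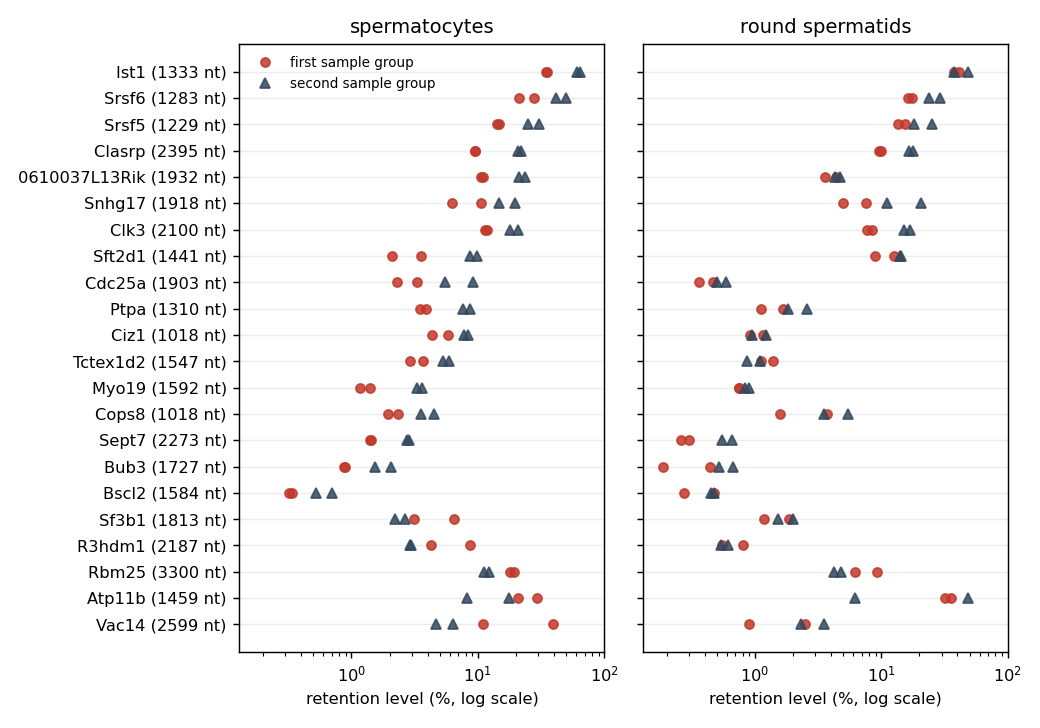
Retention level in percent (x axis, log scale) of the 22 introns called between sample groups in spermatocytes (left), with the same introns in round spermatids (right), 1 point per library. The groups are apart in every row on the left, and on the right many rows overlap.

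Of these 22, 18 had the same sign by header order in round spermatids, and whether the headers keep one genotype order across tables is not given. The stage comparison called 14 of the 22 lower in round spermatids, where 34.4% of all long introns tested were lower, and Sft2d1 higher. Cdc25a had 0.463%, 0.364%, 0.596% and 0.499% in round spermatids, below every spermatocyte library. Whether group differences differ between stages was not tested.

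The deposited test and a quasi-binomial test give other counts. In the authors' deposited table, at an FDR under 0.05 and a level difference of 0.1 or more, 35 members passed in spermatocytes, where 2.14% of all events did, and 10 in round spermatids, where 1.18% did. The quasi-binomial test called 9 in spermatocytes, all lower in the first group, against 0.291% of all events, and 2 in round spermatids, against 0.246%.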

How the data were processed

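Retained introns were taken from deposited splicing tables of 8 libraries. STAR and the mm10 build are named in the submitters' processing notes; the version of STAR is not given in the sources used here. Per the file headers, the tables hold reads of the inclusion and of the skipping form for 2 sample groups, 2 libraries to a cell, form lengths, levels, and a p-value with an FDR from the authors' own test. All 5 event types were fitted together.

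Log2 odds of inclusion per form length were modelled by limma 3.58.1 (R 4.3.3), with inverse counting variance as weights, with a trend on the reads of the rarer form and 0.5 reads added on average. Adjusted p (Benjamini-Hochberg over all tested events) below 0.05 made a call. Labels call the 2 libraries biological replicates without naming animals, so p-values measure the spread between these libraries.

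The fit was tested on simulated data. With normal spread of the log2 odds, of a set size not estimated in the simulation from the libraries, it made few false calls and none among retained introns. This setting was added after the beta-binomial one had given mostly false calls between 2 and 2 libraries. With beta-binomial spread most calls in the 2-against-2 settings were false, retained introns included; the stage setting made fewer false calls and none among retained introns. Which spread the real libraries follow is not settled.

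The members, lists and this fit were chosen with earlier results of these data known. Named introns were, per comparison, at most the 15 called with the largest difference in points (1 a gene), called introns of the gene lists, the highest, lowest and longest, and those next to the length limit. Some introns were named outside this rule, among them Ckap5 and uncalled introns of the gene lists such as Tardbp. Plots used matplotlib 3.10.9. Some members are not reported here by name.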

Additional observations from a re-analysis of the deposited data

How the results depend on the processing

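The count of members called between sample groups in spermatocytes (22) depended on the fit: it was 0 with the trend on total reads, 0 without count weights, 0 with no filter on low reads, 9 by the quasi-binomial test and 35 by the authors' deposited test. It was 6 for introns of 2000 nt or more and 14 without introns that overlap an alternative exon. Leaving out each library in turn gave 0 to 30 calls, and the fits with 28 and 30 called 11381 of 53740 and 11333 of 53646 events, a larger share than of members. In round spermatids the count (1) was 0 with the trend on total reads, without count weights, with no filter or without introns that overlap an exon. It was 2 with unscaled reads, by the quasi-binomial test, with at least 50 reads, adjusted over retained introns or for 500 nt or more, 4 in the fit of 8 libraries and 10 by the authors' deposited test, and 0 to 16 with each library left out, where the fits with 16 of 437 and 8 of 425 called 6589 of 44404 and 3755 of 42249 events, again a larger share. The cause was not tested. The stage count (168) moved past 1.5 times with the length limit alone, to 287 at 500 nt, and to 49 at 2000 nt, because other introns were counted. With each library left out it was 134 to 161. The change in the gap between long and shorter introns (1.04 points) passed the threshold with at least 50 reads (1.78), without introns that overlap an alternative exon (1.73), without introns holding a whole one (2.08, chosen after seeing the data), and ranged from 0.754 to 1.30 with each library left out, where leaving out the second library of the second spermatocyte group gave 1.30 and an exact permutation p = 0.0286. No direction reversed in any alternative run. No paired analysis was possible because the table columns carry no replicate numbers. Levels near 100% are limited by few skipping reads.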

Other observations

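Overlapping members with nearly the same inclusion reads had very different levels in Clasrp. The 2395-nt and 2327-nt introns shared nearly all inclusion reads (280 and 280 in the first spermatocyte library), but had 156 and 2 skipping reads there, and levels of 9.51% and 89.4%.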
